A study of Rattus norvegicus with 47 samples.

Results

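The 9 genes described here encode sensors of the inflammasome and the proteins through which it kills cells. They were taken by gene name from 30045 listed genes and were present in the tables of both tissues and both times. The sensors are Nlrp3, Nlrc4 and Aim2, the adaptor is Pycard, the inflammatory caspases are Casp1 and Casp4, the pore protein is Gsdmd, and Nek7 and Txnip encode proteins that bind NLRP3. All 9 passed the filter on low counts in every comparison.

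Polyadenylated RNA was sequenced from the lungs and the whole blood of male rats of the inbred strain Fischer 344. The 8 groups were silica and air lungs 1 day after exposure, silica and air lungs 6 months after, and silica and air blood at the same times. Silica rats had inhaled airborne crystalline silica (Min-U-Sil 5, a respirable quartz dust) at 15 mg/m3 for 6 hours a day on 5 days, and air rats had inhaled filtered air. Of the 47 libraries, 5 were air lungs at 6 months and each other group had 6, with 1 animal per library. The labels give no age at exposure, and blood RNA was depleted of globin messages before sequencing.

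Inflammasomes are cytosolic complexes in which a sensor recruits the adaptor ASC, the product of Pycard, and activates caspase-1. Caspase-1 then matures interleukin-1 beta and interleukin-18 and cleaves gasdermin D, whose fragments form pores in the plasma membrane, the death known as pyroptosis. Silica crystals taken up by macrophages damage lysosomes and are a classical trigger of NLRP3. Assembly and cleavage are changes in protein, which RNA levels do not measure.

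Total estimated counts ran from 9643527 to 25875985 per library. Levels below are CPM, a gene's counts scaled to a common library size with TMM factors set within each tissue and time, and changes are log2 ratios of silica to air ± SE from edgeR's quasi-likelihood test, with p-values adjusted by Benjamini and Hochberg's method over all genes tested and a threshold of 0.05. In whole tissue, fewer cells of a type and less RNA per cell cannot be told apart. Surfactant, club cell and other lung markers were present in every lung group, while in each blood group 2 of 3 club cell markers were at 0 in every library. Other lists of lung markers had lower sums in blood, though not sums of 0. In air blood at 1 day, 1 of 4 alveolar type 1 and 1 of 4 alveolar type 2 markers were at 0 in every library. Of the type 2 markers, Abca3 alone ran from 19.7 to 34.2 CPM in blood, close to the whole sum of that list. In blood, alveolar type 1 markers summed to 133 to 186 CPM, alveolar type 2 markers to 20.1 to 34.3 CPM and endothelial markers to 35.5 to 65.8 CPM. In lung these sums were at least 3294, 18215 and 1640 CPM. Of 2 alveolar type 1 markers tested in blood at 1 day, 1 rose. Globin took 2.07% to 6.76% of counts in blood.

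Under air, the genes fell into a set that was higher in lung and a set that was higher in blood. Of the sensors, Nlrp3, the sensor of membrane and lysosomal damage, averaged 17.6 CPM in air lung and 63.1 CPM in air blood at 1 day, 3.59-fold higher in blood. Nlrc4, which assembles on bacterial flagellin and secretion proteins bound by NAIP partners, was 2.48-fold higher in blood, and Aim2, a sensor of cytosolic DNA, averaged 4.51 CPM in air lung and 11.7 CPM in air blood. Pycard was 2.44-fold and Casp1 1.32-fold higher in blood.

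The other 4 genes were higher in lung. Casp4, the rat counterpart of mouse caspase-11, which in mice binds bacterial lipopolysaccharide and cleaves gasdermin D, averaged 19.7 CPM in air lung and 13.4 CPM in air blood at 1 day. Gsdmd, the pore protein, was 1.61-fold higher in lung. Nek7, a kinase that bridges neighbouring NLRP3 molecules, was 2.08-fold higher in lung, and Txnip, an inhibitor of thioredoxin reported to bind NLRP3 under oxidative stress, was 3.51-fold higher in lung.

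The same order between tissues was seen at 6 months, where the difference was smallest for Casp1, at 61.3 CPM in air lung and 65.8 CPM in air blood. The ranges of air lung and air blood did not overlap for any of the 9 genes at either time. The same was true of 84.5% of all genes compared at 1 day and of 89.1% at 6 months. The tissues were counted in separate tables and TMM factors were set within each, so no factor links lung CPM to blood CPM. These levels were not tested, and the difference of Casp1 at 6 months was only 1.07-fold.

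**Figure D1:**
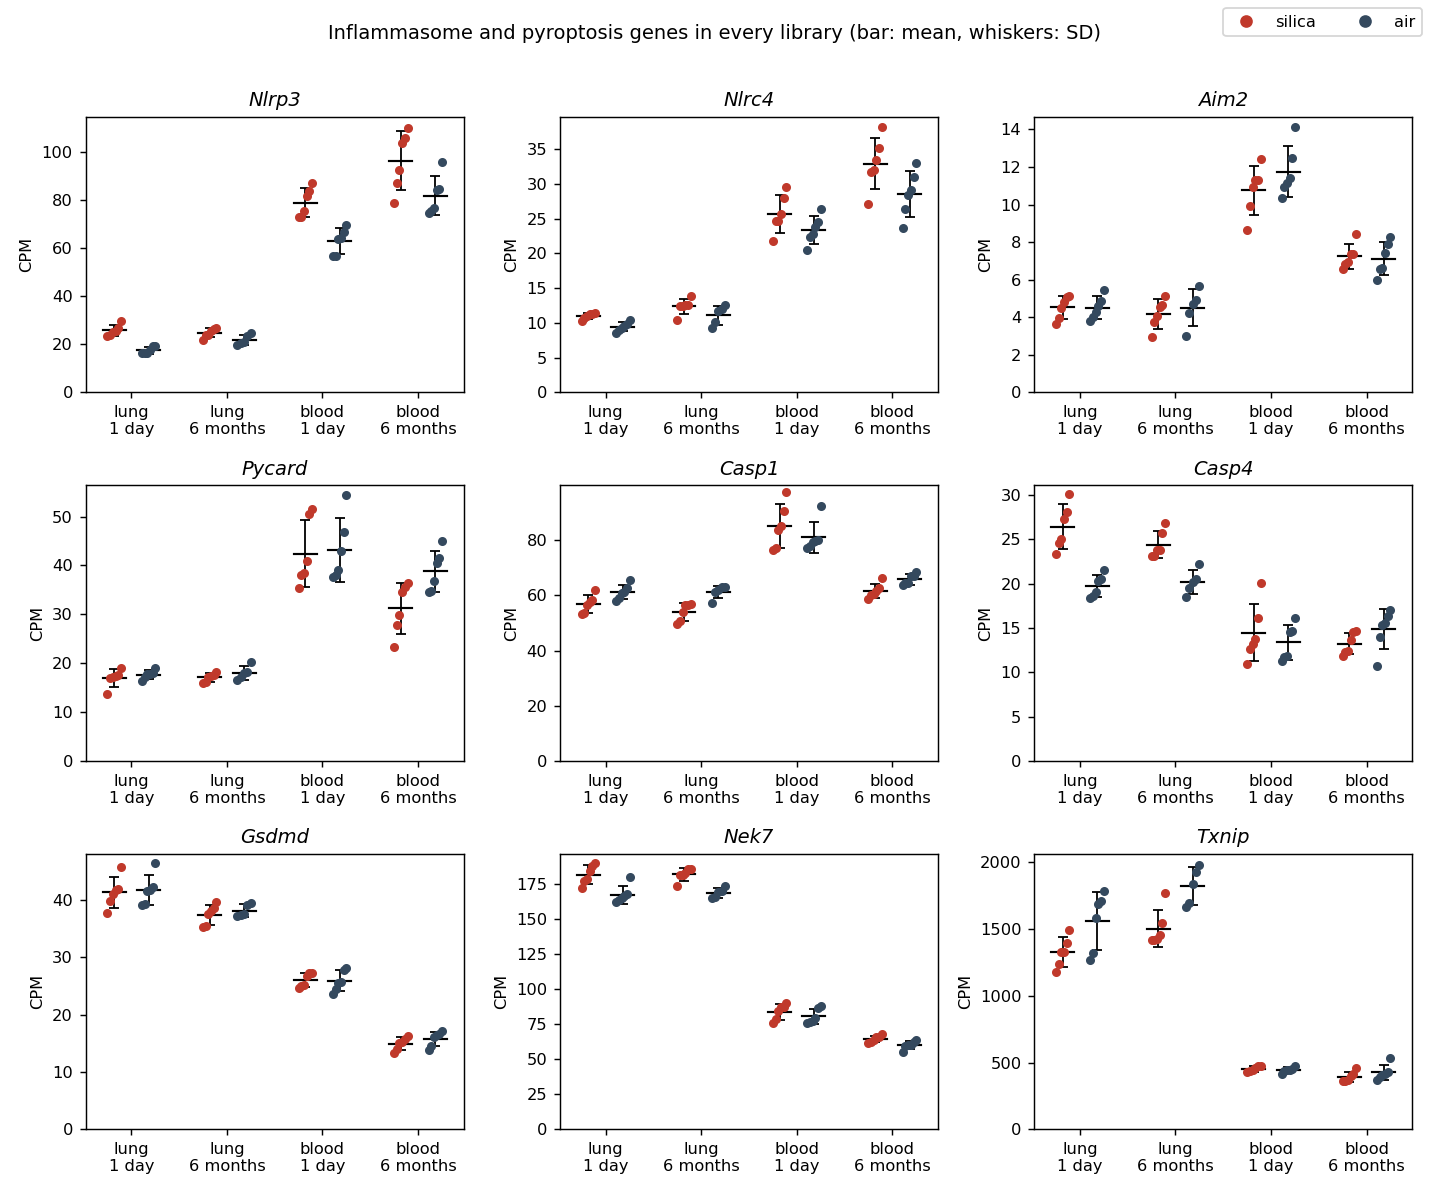
CPM (vertical axes, from 0) of each of the 9 genes in all 47 libraries, with silica (red) left of air (blue) in lung and blood at 1 day and 6 months; horizontal bars are group means and whiskers SD. Silica points lie above all air points for Nlrp3 in lung and blood at 1 day and for Casp4 in lung at both times, and below all air points for Casp1 in lung at 6 months.

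In lung 1 day after silica, the sensors Nlrp3 and Nlrc4, the caspase Casp4 and the kinase Nek7 rose, and none of the 9 genes fell past the threshold. The 4 calls of 9 stood against 14.1% of the 15331 genes tested, 8.39% of them higher and 5.72% lower. The median change of the 9 genes was 0.01 on the log2 scale, against -0.0024 over all genes tested. The changes were small in size, the largest being that of Nlrp3, with means of 25.8 CPM in silica lungs and 17.6 CPM in air lungs.

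Nlrp3 ran from 23.6 to 29.6 CPM (median 25.4) in silica lungs at 1 day, against 16.2 to 19.3 CPM (median 17.1) in air lungs. All 6 silica lungs were above all 6 air lungs, a separation in this direction found for 5.04% of genes tested. The log2 fold change was 0.55 ± 0.07 (edgeR adjusted p = 7.74e-05).

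The RefSeq promoter window of Nlrp3, from 250 bases before to 50 after the annotated start (build GRCr8, chr10:44827848-44828147, plus strand), is printed with those of Casp1 (chr8:10872580-10872879, plus strand) and Nek7 (chr13:52700774-52701073, minus strand) because they are the genes with a call in lung that the promoter table holds. It held 5 of the 9 genes, Aim2 and Pycard being the others. Capitals mark the single motif match in these 3 windows.
Nlrp3: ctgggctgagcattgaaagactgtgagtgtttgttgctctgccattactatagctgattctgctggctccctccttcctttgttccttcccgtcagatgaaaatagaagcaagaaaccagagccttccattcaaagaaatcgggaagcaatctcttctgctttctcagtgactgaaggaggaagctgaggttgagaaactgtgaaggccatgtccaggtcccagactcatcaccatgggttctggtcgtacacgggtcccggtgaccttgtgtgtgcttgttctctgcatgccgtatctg
Casp1: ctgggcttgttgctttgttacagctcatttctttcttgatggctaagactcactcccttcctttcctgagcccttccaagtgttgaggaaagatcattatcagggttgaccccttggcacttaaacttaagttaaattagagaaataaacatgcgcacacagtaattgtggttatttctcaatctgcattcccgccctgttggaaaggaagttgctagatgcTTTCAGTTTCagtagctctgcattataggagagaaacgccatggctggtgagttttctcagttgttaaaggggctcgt
Nek7: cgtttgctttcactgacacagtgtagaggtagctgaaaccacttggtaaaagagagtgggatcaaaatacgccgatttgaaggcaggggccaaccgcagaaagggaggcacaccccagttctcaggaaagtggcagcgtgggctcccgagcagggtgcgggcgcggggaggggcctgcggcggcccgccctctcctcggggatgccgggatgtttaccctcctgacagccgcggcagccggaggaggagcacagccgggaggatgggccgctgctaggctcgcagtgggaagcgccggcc

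Both strands were searched for 5 motifs. These were the NF-kB consensus, the interferon-stimulated response element (ISRE, GAAA and again GAAA after any 2 bases), the PU.1 motif GAGGAAGT, the antioxidant response element TGACNNNGC and the E-box CACGTG. The Casp1 window held an ISRE on the minus strand, starting 28 bases before the annotated start, and 3.92% of 33469 windows of this length hold one. The Aim2 window held the PU.1 motif, which 2.42% of windows hold. The windows of Nlrp3, Pycard and Nek7 held none of the 5, which says only that these letters are not in these windows. The NF-kB consensus stood in 4.18% of all windows, the antioxidant response element in 12.1% and the E-box in 6.42%. The Nek7 window was rich in G and C, at 65% with 22 CG pairs, against 43.3% with 4 CG pairs for Casp1, 49.7% with 6 for Nlrp3 and medians of 51.7% and 7 over all windows.

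Casp4 ran from 23.4 to 30.1 CPM (median 26.2) in silica lungs at 1 day, against 18.4 to 21.5 CPM (median 19.7) in air lungs. Again every silica lung was above every air lung, with a log2 fold change of 0.42 ± 0.07 (edgeR adjusted p = 6.27e-04). Nlrp3 and Casp4 were past the threshold in every alternative fit and without any single library.

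The other calls at 1 day were of genes that changed less. Nlrc4 ran from 10.3 to 11.5 CPM (median 11.2) in silica lungs and from 8.61 to 10.4 CPM (median 9.37) in air lungs, and 5 of 6 silica lungs were above all air lungs. Its log2 fold change was 0.23 ± 0.07 (edgeR adjusted p = 0.0343). Adjusted p was 0.0549 with DESeq2, 0.0520 with all 4 lung groups in 1 model and 0.0726 with no filter on low counts. It ran from 0.0223 to 0.0687 with 1 library left out, and the call was kept only without air 39, air 41 or silica 43.

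Nek7 ran from 172 to 190 CPM (median 181) in silica lungs and from 162 to 180 CPM (median 166) in air lungs. Air animal 42 lay among the silica lungs and all other air lungs below them. The log2 fold change was 0.12 ± 0.03 (edgeR adjusted p = 0.0343). Adjusted p was 0.0510 with no filter and 0.0139 to 0.0795 with 1 library left out, and the call was kept only without air 42, silica 45, silica 46 or silica 47.

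Casp1, Txnip, Pycard, Gsdmd and Aim2 did not pass the test at 1 day. Casp1 averaged 56.9 ± 3.19 CPM in silica lungs and 61.3 ± 2.67 CPM in air lungs (SD, n = 6 each), a log2 fold change of -0.11 ± 0.04 (edgeR adjusted p = 0.108). Txnip averaged 1324 ± 112 CPM in silica lungs and 1557 ± 215 CPM in air lungs, a log2 fold change of -0.23 ± 0.08 (edgeR adjusted p = 0.0822). Txnip was past the threshold with DESeq2 (adjusted p = 0.0350), with all 4 lung groups in 1 model (0.0407) and without air 37 (0.0376) or air 38 (0.0206).

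Pycard, Gsdmd and Aim2 had log2 fold changes of -0.06, -0.01 and 0.01, with overlapping ranges in silica and air lungs. For Gsdmd, the interval of the log2 fold change reached from -0.12 to 0.10 at the 95% level, and for Aim2, at 3.63 to 5.16 CPM in silica lungs and 3.79 to 5.45 CPM in air lungs, it reached from -0.25 to 0.26.

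**Figure D2:**
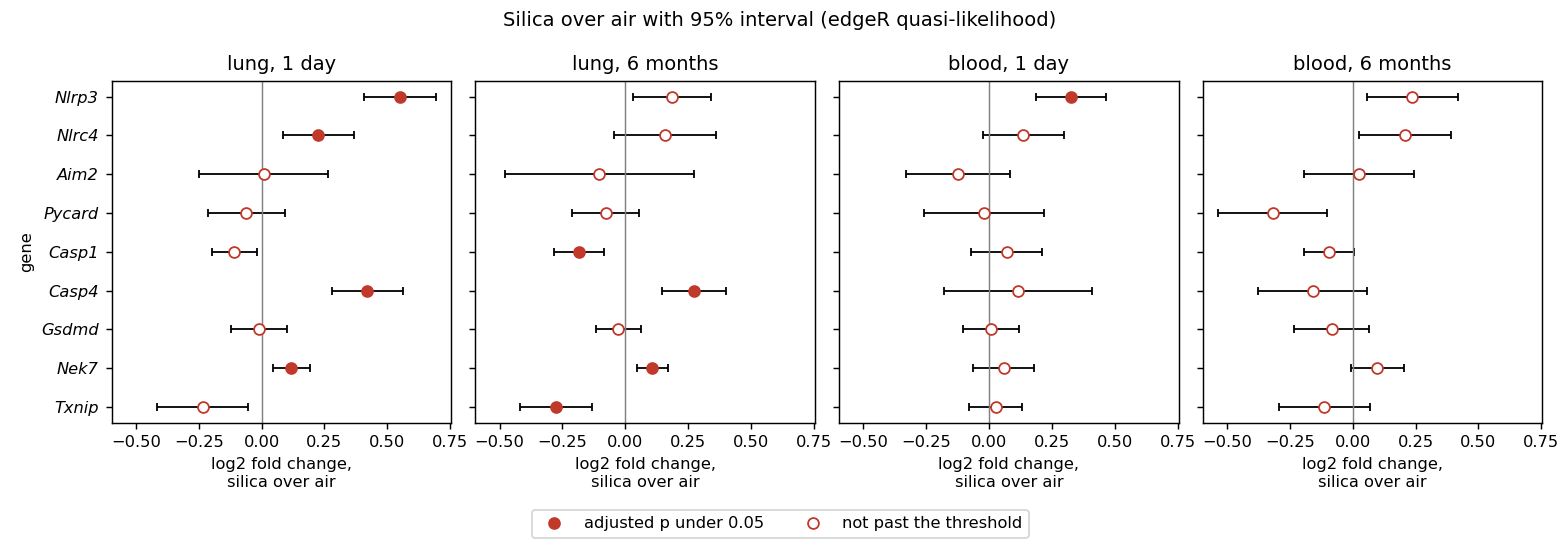
Log2 fold change of silica over air (horizontal axis) for the 9 genes (rows) in each tissue and time (panels), with 95% confidence intervals; filled points have an edgeR adjusted p under 0.05. Filled points are Nlrp3, Nlrc4, Casp4 and Nek7 in lung at 1 day, Casp1, Casp4, Nek7 and Txnip in lung at 6 months, and Nlrp3 in blood at 1 day.

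At 6 months, Casp4 and Nek7 were again higher in silica lungs, Casp1 and Txnip were lower, and no sensor passed the threshold. These 4 calls of 9 stood against 16.2% of the 15309 genes tested, 9.84% higher and 6.38% lower. The median change of the 9 genes was -0.03 on the log2 scale, against -0.01 over all genes.

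Casp4 ran from 23.1 to 26.8 CPM (median 23.8) in silica lungs at 6 months, against 22.2, 20.2, 19.5, 18.5 and 20.6 CPM in the 5 air lungs. All silica lungs were above all air lungs, as for 6.96% of genes tested. The log2 fold change was 0.27 ± 0.06 (edgeR adjusted p = 0.00765).

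Casp1, the caspase that ASC recruits, went the other way. It ran from 49.6 to 57.0 CPM (median 55.1) in silica lungs, against 61.3, 57.4, 62.97, 61.8 and 62.9 CPM in air lungs, so that all 6 silica lungs were below all air lungs. That separation was found for 3.5% of genes tested. Its log2 fold change was -0.18 ± 0.05 (edgeR adjusted p = 0.0170).

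The 2 caspases are similar genes, and estimated counts of similar genes depend on how reads were shared between them. Within a library, Casp4 stood at 43.4 to 51.7 counts per 100 Casp1 counts (median 45.7) in silica lungs at 1 day and at 28.1 to 35.3 (median 32.4) in air lungs. At 6 months the ratio was 41.1 to 47.9 (median 45.4) in silica lungs and 29.9 to 36.3 (median 32.7) in air lungs. The groups did not overlap in lung at either time, whereas in blood they overlapped at both. At 1 day the ratio was 14.3 to 20.6 in silica blood and 14.5 to 18.9 in air blood, and at 6 months 19.3 to 23.3 in silica blood and 16.7 to 25.4 in air blood. The ratio was computed after the single genes had been seen, was not tested, and is not a ratio of molecules because it takes no account of gene length. At 6 months its separation in lung follows from those of Casp4 and Casp1 given above, so it is not a further result.

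**Figure D3:**
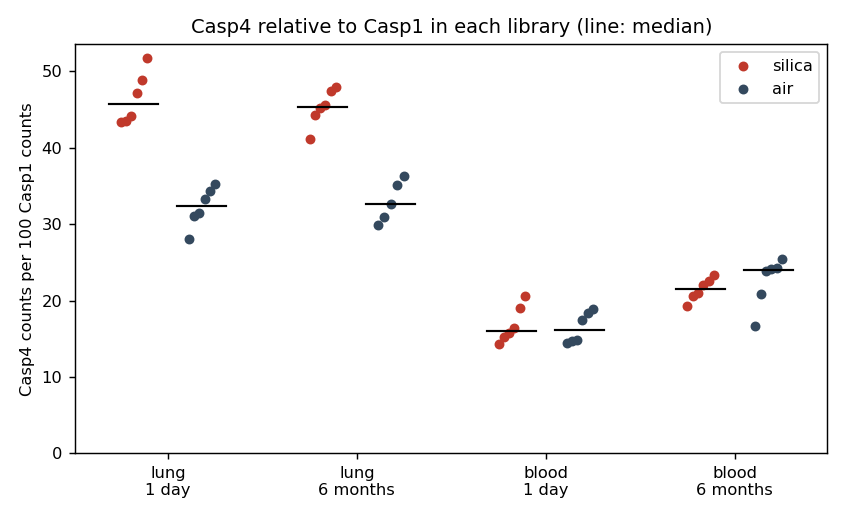
Casp4 estimated counts per 100 Casp1 estimated counts (vertical axis, from 0) in each library, silica (red) left of air (blue), with group medians as lines. In lung the silica libraries lie at 41.1 or above and the air libraries at 36.3 or below, and in blood the groups overlap.

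Nek7 ran from 173 to 186 CPM (median 182) in silica lungs at 6 months, against 169, 165, 170, 173 and 166 CPM in air lungs. Silica animal 64 was at the top of the air range and the other 5 silica lungs were above it. The log2 fold change was 0.11 ± 0.03 (edgeR adjusted p = 0.0209), with adjusted p of 0.0593 without air 51, 0.0517 without air 54 and 0.0501 without silica 59.

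Txnip ran from 1413 to 1767 CPM (median 1438) in silica lungs, against 1665, 1690, 1979, 1928 and 1836 CPM in air lungs. Silica animal 59 lay inside the air range and the other 5 silica lungs below it. Its log2 fold change was -0.28 ± 0.07 (edgeR adjusted p = 0.0130), a ratio of means of 0.825. Casp1, Casp4 and Txnip stayed past the threshold in every alternative fit and without any single library.

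Nlrp3 did not pass at 6 months, at 21.9 to 26.9 CPM (median 24.9) in silica lungs and 20.9, 24.9, 20.7, 19.6 and 23.4 CPM in air lungs. Only 3 silica lungs were above all air lungs, and the log2 fold change was 0.18 ± 0.07 (edgeR adjusted p = 0.1002, or 0.0477 without air 51). Nlrc4 had a log2 fold change of 0.16 ± 0.09 (adjusted p = 0.283), Pycard -0.08 (0.424), Aim2 -0.10 (0.736) and Gsdmd -0.03 (0.698).

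The silica effect at 6 months minus that at 1 day was tested as an interaction, and 0 of the 9 genes were past the threshold, against 1.375% of 15786 genes. Nlrp3 came nearest, with a difference of -0.36 ± 0.10 (unadjusted p = 0.00139, edgeR adjusted p = 0.0744), and was the 1 gene of the 9 with an unadjusted p under 0.05. Its adjusted p was 0.0358 with DESeq2 and 0.0484 without air 42. For Casp4 the difference was -0.14 ± 0.09 (adjusted p = 0.502), and for Txnip -0.04 ± 0.12 (0.923).

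In blood 1 day after silica, Nlrp3 was the 1 gene of the 9 past the threshold, and it rose. The background was 1.371% of 12253 genes tested, 1.192% higher and 0.18% lower. Nlrp3 ran from 73.0 to 87.4 CPM (median 78.7) in silica blood, against 56.6 to 69.8 CPM (median 64.2) in air blood. All 6 silica animals were above all 6 air animals, a separation in this direction found for 1.510% of genes. The log2 fold change was 0.33 ± 0.06 (edgeR adjusted p = 0.0234), and the ratio of means was 1.25. Adjusted p rose to 0.0575 without air 38, 0.0562 without air 42, 0.0618 without silica 45, 0.0609 without silica 46 and 0.0639 without silica 48. It was 0.0487 or less in the other alternatives, leaving out the 2 libraries above 4% globin among them. Both of these were silica animals, 44 and 47, so that fit took libraries from the silica group only.

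The other 8 genes did not pass in blood at 1 day. Nlrc4 averaged 25.7 ± 2.73 CPM in silica blood and 23.4 ± 2.02 CPM in air blood (SD, n = 6 each), with a log2 fold change of 0.14 ± 0.08 (edgeR adjusted p = 0.487). The remaining 7 had log2 fold changes from -0.12 (Aim2) to 0.12 (Casp4). Txnip, which was lower in silica lungs at 6 months, averaged 452 ± 19.96 CPM in silica blood and 444 ± 19.3 CPM in air blood, and the interval of its log2 fold change reached from -0.08 to 0.13.

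At 6 months in blood, 0 of the 9 genes were past the threshold with edgeR, DESeq2 or limma-voom, against 0.0086% of the 11629 genes tested with edgeR. Nlrp3, Nlrc4 and Pycard had unadjusted p under 0.05. Nlrp3 had a log2 fold change of 0.24 ± 0.09 (adjusted p = 0.539), with 3 of 6 silica animals above all air animals. Pycard, the adaptor, averaged 31.2 ± 5.19 CPM in silica blood and 38.8 ± 4.18 CPM in air blood, a log2 fold change of -0.32 ± 0.10 (adjusted p = 0.539), with 3 of 6 silica animals below all air animals. Casp1 was below all air animals in 5 of 6 silica animals, with a log2 fold change of -0.10 ± 0.05 (adjusted p = 0.589). The share of all genes with such partial separations was not computed, here or in lung, so these counts only describe the samples. The blood effects at 6 months minus those at 1 day were past the threshold for 0 of 9 genes and 0% of 12444 genes with edgeR, and 0 of the 9 had an unadjusted p under 0.05. DESeq2 called 85 genes there and 0 of the 9.

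Lung and blood effects were compared as a further interaction, the silica effect in lung minus that in blood. At 1 day 0 of 9 genes passed, against 4.03% of 15989 genes, and at 6 months 0 of 9, against 3.53% of 15790. These fits took lung and blood libraries as independent, though they share animal numbers. With the animal as a block, 0 of 9 passed at both times. Over all genes 415 then passed instead of 645 at 1 day, and 202 instead of 557 at 6 months. The values that follow are from the fits without the block. The nearest at 1 day were Txnip at -0.31 ± 0.10 (edgeR adjusted p = 0.102) and Casp1 at -0.22 ± 0.08 (0.119). Txnip passed without lung air 37 (adjusted p = 0.0497) or lung air 38 (0.0270). The nearest at 6 months was Casp4 at 0.41 ± 0.13 (edgeR adjusted p = 0.0748), which was 0.0444 with DESeq2 and 0.00636 without blood air 53. The rise of Casp4 in lung was therefore not shown to differ from blood, where its log2 fold changes were 0.12 ± 0.14 at 1 day and -0.16 ± 0.10 at 6 months.

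Around these genes, 66 others of the pathway were followed, 65 of them found in the tables. In lung 14 rose and 1 fell of 61 tested at 1 day, with a median log2 fold change of 0.08, and 14 rose and 3 fell of 61 at 6 months, also with a median of 0.08. Over all genes tested 14.1% passed at 1 day, 8.39% higher and 5.72% lower, and 16.2% at 6 months, 9.84% higher and 6.38% lower. In blood 5 rose and 0 fell of 59 at 1 day, with a median of 0.01, against 1.371% of all genes, and at 6 months 0 of 57 passed. The counts by role below are to be read against these shares, and several, such as those of the other sensors, lie near them.

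Of the cytokines that caspase-1 matures, Il1b led at 1 day and Il18 at 6 months. Il1b ran from 37.4 to 72.9 CPM (median 51.0) in silica lungs and from 18.2 to 33.1 CPM (median 23.1) in air lungs at 1 day, without overlap, with a log2 fold change of 1.17 ± 0.18 (edgeR adjusted p = 5.45e-04). At 6 months it was 0.12 ± 0.11 (adjusted p = 0.527). Il18 ran from 34.7 to 45.5 CPM (median 35.8) in silica lungs at 6 months, and from 22.8 to 28.2 CPM (median 26.9) in the 5 air lungs. Its log2 fold change was 0.53 ± 0.08 (adjusted p = 7.75e-04) at 6 months and -0.13 ± 0.12 (0.550) at 1 day. Both shifts between times passed the interaction test, Il1b at -1.05 ± 0.23 (adjusted p = 0.0201) and Il18 at 0.67 ± 0.16 (0.0276). For Il18 the adjusted p of the difference ran up to 0.0673 with 1 library left out, and the call ended without 1-day air 37, 38 or 41 or silica 43, 44 or 47, or 6-month air 49 or 53 or silica 58 or 59.

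In blood, Il1b ran from 302 to 457 CPM (median 343) in silica animals at 1 day and from 227 to 281 CPM (median 268) in air animals, with a log2 fold change of 0.45 ± 0.09 (edgeR adjusted p = 0.0249). Adjusted p was 0.0585 without the libraries above 4% globin, and reached 0.0639 with 1 library left out: air 38, 41 and 42 and silica 45 and 46 each ended the call. Il1b was at 0.16 ± 0.09 (0.621) in blood at 6 months. Il18 was at 0.18 ± 0.21 (0.784) and -0.45 ± 0.25 (0.619) in blood at 1 day and 6 months, from 7 to 42 counts per library.

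Among the 13 other sensors tested in lung, 2 rose at 1 day and 1 at 6 months, with 0 falling at either time. At 1 day these were Mefv, which encodes the sensor pyrin (0.64 ± 0.14, edgeR adjusted p = 0.00739), and Nod2, a sensor of muramyl dipeptide (0.34 ± 0.10, 0.0410). Nod2 was at 0.0521 with limma-voom, 0.0565 with no filter and up to 0.0909 with 1 library left out, and kept its call only without air 39 or silica 43, 44 or 45. At 6 months the gene was Naip5, which in mice is a partner of NLRC4 (0.35 ± 0.07, 0.00422); the NAIP genes are similar to each other, and their estimated counts are uncertain.

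Of 12 genes for upstream triggers, 3 rose at 1 day in lung and 0 fell. They were the lipoprotein receptor Tlr2 (0.69 ± 0.07, edgeR adjusted p = 2.28e-05), the pyrin-binding Pstpip1 (0.54 ± 0.10, 0.00179) and the kinase Ripk1 (0.11 ± 0.03, 0.0359). Ripk1 was at 0.0847 with all 4 lung groups in 1 model, 0.0545 with no filter and up to 0.0751 with 1 library left out, and kept its call only without air 37, 40 or 41 or silica 47. At 6 months 4 rose and 2 fell. The rises with the smallest p were those of the lysosomal protease Ctsb (0.49 ± 0.07, 7.63e-04), the ATP-gated channel P2rx4 (0.22 ± 0.05, 0.00768) and Pstpip1 (0.40 ± 0.09, 0.00852). The 2 that fell, named after their values were seen, were P2rx7, the ATP receptor that drives potassium efflux (-0.33 ± 0.08, 0.0120), and the guanylate-binding protein Gbp5 (-0.25 ± 0.06, 0.0179).

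Of 12 substrates and executioners, Il1b and the necroptosis kinase Ripk3 rose at 1 day and Il18 and Ripk3 at 6 months. Ripk3 was at 0.54 ± 0.07 (edgeR adjusted p = 1.52e-04) at 1 day and 0.52 ± 0.13 (0.0150) at 6 months. Of 8 inhibitors and repair genes, Il1rn, the interleukin-1 receptor antagonist, rose at both times, at 0.55 ± 0.07 (1.04e-04) and 0.95 ± 0.16 (0.00170). Il18bp, a secreted antagonist of interleukin-18, rose at 1 day (0.27 ± 0.07, 0.0187). At 6 months Serpinb1a, a serine protease inhibitor, rose (0.44 ± 0.08, 0.00277) and Serpinb9, an inhibitor of granzyme B, fell (-0.18 ± 0.05, 0.0216).

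Txnip belongs to the thioredoxin and glucose-sensing system, of which 10 further genes were tested in lung. At 1 day 3 rose and 1 fell, and at 6 months 4 rose and 0 fell. Txnrd1, the cytosolic thioredoxin reductase, rose at both times, at 0.27 ± 0.04 (edgeR adjusted p = 3.77e-04) and 0.32 ± 0.05 (0.00169). The glucose transporter Slc2a1 was at 0.37 ± 0.06 (9.00e-04) and 0.55 ± 0.09 (0.00122). Mlxipl, a glucose-responsive transcription factor for which Txnip is a known target, rose by 1.21 ± 0.20 (9.27e-04) at 1 day and 0.76 ± 0.15 (0.00460) at 6 months. Thioredoxin itself, Txn1, was at -0.12 ± 0.06 (0.200) at 1 day and rose at 6 months (0.34 ± 0.06, 0.00334), and the difference between the times was 0.46 ± 0.09 (0.00831). The arrestin relative Arrdc3 fell at 1 day (-0.25 ± 0.05, 0.00435) and is named because it was the 1 that fell.

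Of 6 transcription factors, Irf8 (0.32 ± 0.07, edgeR adjusted p = 0.00455) and Spi1, which encodes PU.1 (0.17 ± 0.05, 0.0311), rose at 1 day. Spi1 rose at 6 months (0.49 ± 0.09, 0.00327). Its 1-day adjusted p was 0.148 with all 4 lung groups in 1 model and up to 0.0848 with 1 library left out, and the call was kept only without air 38 or 41 or silica 43 or 44. In blood at 1 day the 5 that rose were Il1b, Il1rn (0.33 ± 0.06, 0.0203), Nlrp12 (0.46 ± 0.08, 0.0168), Arrdc3 (0.32 ± 0.07, 0.0305) and Pstpip1 (0.20 ± 0.04, 0.0260). The count was 3 with all 4 blood groups in 1 model, 2 without the libraries above 4% globin and 1 to 6 with 1 library left out. It was 1 to 3 without air 37, 38, 41 or 42 or silica 45, 46 or 48. With 1 library left out, adjusted p reached 0.0599 for Il1rn, 0.0858 for Arrdc3 and 0.0757 for Pstpip1. It was 0.0523 for Nlrp12 and 0.0921 for Arrdc3 without the libraries above 4% globin, and 0.128 for Arrdc3 and 0.106 for Pstpip1 with all 4 blood groups in 1 model.

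**Figure D4:**
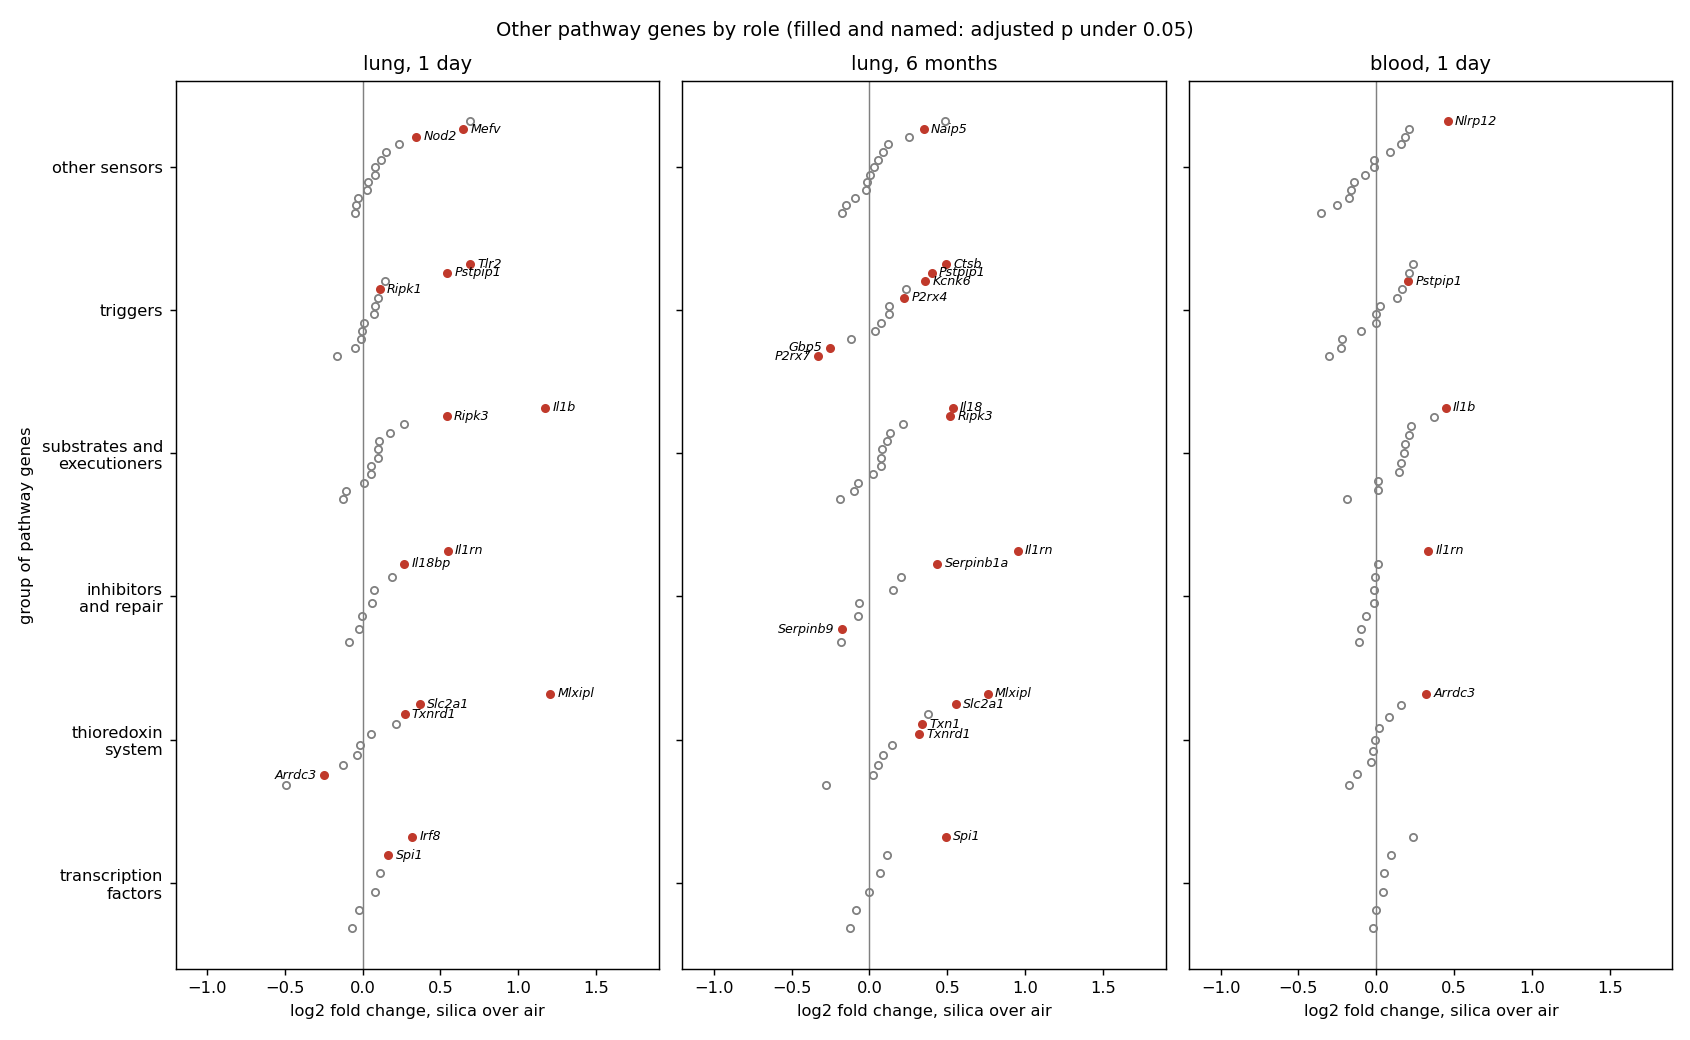
Log2 fold change of silica over air (horizontal axis) for the other pathway genes, grouped by role (rows), in lung at 1 day, lung at 6 months and blood at 1 day; filled and named points have an edgeR adjusted p under 0.05, and height within a row only separates points. Il1b at 1.17 and Mlxipl at 1.21 lie farthest right in lung at 1 day, and Il1rn at 0.95 in lung at 6 months.

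Markers of some leukocytes moved with treatment in the same libraries. Counts of markers called are to be read against the shares of all genes tested. In lung these were 8.39% higher and 5.72% lower at 1 day, and 9.84% higher and 6.38% lower at 6 months. In blood 1.371% passed at 1 day and 0.0086% at 6 months. No such share was computed for the marker sums. Of the T cell, B cell and NK cell markers, 0 of 4 tested in each list passed in either tissue at either time. In blood, 0 of 3 monocyte and 0 of 4 macrophage markers tested passed at either time. The 6 neutrophil markers Csf3r, Cxcr2, S100a8, S100a9, Mmp8 and Fpr1 summed to 277 to 637 CPM in silica lungs and 101 to 228 CPM in air lungs at 1 day, and 5 of the 5 tested rose. The median log2 fold change of those tested was 1.06. At 6 months the 6 summed to 402 to 591 CPM in silica lungs and 196 to 302 CPM in air lungs, but S100a8 and S100a9 were the 2 of 6 that rose. The median over the 6 was 0.15, and Csf3r averaged 54.0 CPM in silica lungs and 52.7 CPM in air lungs. In blood at 1 day the sum was 3409 to 4178 CPM in silica animals and 2066 to 2663 CPM in air animals, with 4 of 6 markers higher, and at 6 months the groups overlapped.

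The summed macrophage and monocyte markers each overlapped between silica and air lungs at 1 day, while 2 macrophage markers rose and 1 fell of 5 tested, and 2 monocyte markers rose and 1 fell of 3. At 6 months the monocyte sums overlapped again, with 1 marker higher and 1 lower of 3. Macrophage markers then summed to 528 to 681 CPM in silica lungs and 348 to 447 CPM in air lungs, with 4 of 5 tested higher. Endothelial markers summed to 1640 to 1839 CPM in silica lungs and 2026 to 2275 CPM in air lungs at 6 months, and 4 of 4 fell. At 1 day 3 of 4 fell.

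Markers of lung epithelium and red cells moved too. Alveolar type 1 markers summed to 3310 to 3524 CPM in silica lungs and 3603 to 4403 CPM in air lungs at 1 day, without overlap, and 4 of 4 fell. At 6 months 1 of 4 fell. Alveolar type 2 markers summed to 26058 to 32230 CPM in silica lungs and 18215 to 23045 CPM in air lungs at 6 months, without overlap, and 3 of 4 rose, while at 1 day 1 rose and 1 fell. Erythroid markers summed to 2832 to 3750 CPM in silica lungs and 3765 to 5021 CPM in air lungs at 1 day, and 4 of 5 fell. At 6 months 1 of 5 fell. Of 3 club cell markers, 1 fell at 1 day and 0 at 6 months, and their sums overlapped at both times. Of 2 platelet markers tested in lung, 1 fell at 1 day and 0 at 6 months. No marker of these lists found in the tables was at 0 throughout a lung group. The part of these markers in the changes of Nlrp3, Casp4, Casp1, Nek7 and Txnip was not tested.

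**Figure D5:**
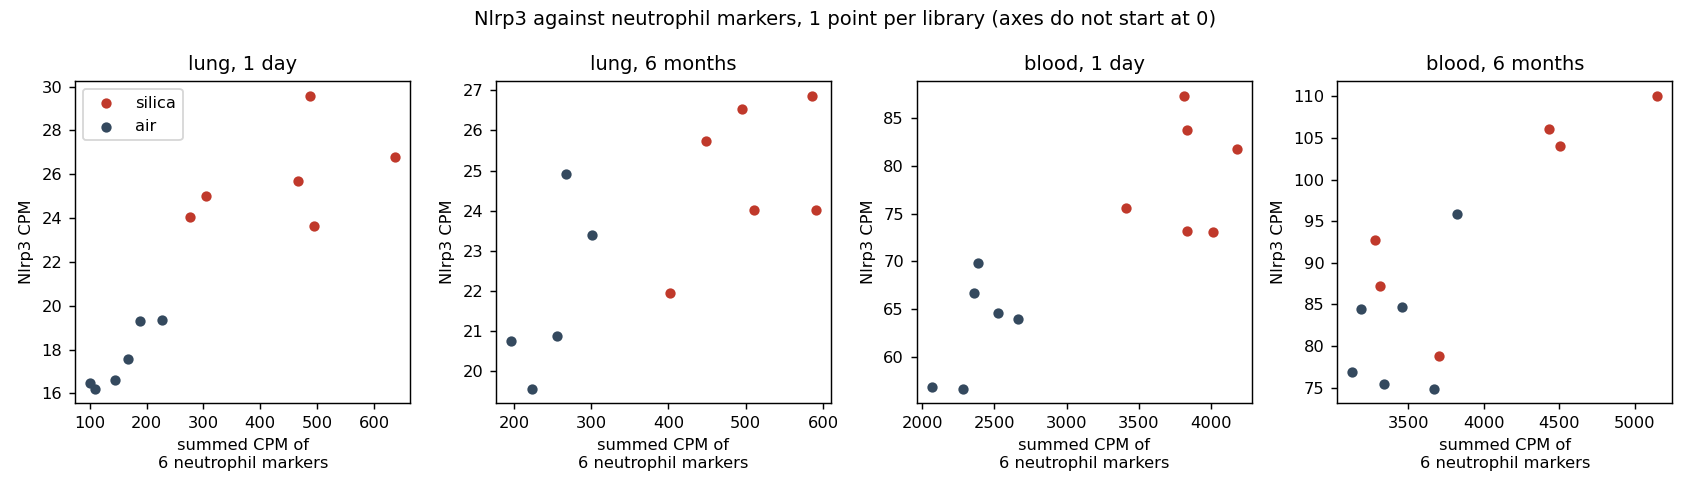
Nlrp3 CPM (vertical axes) against the summed CPM of 6 neutrophil markers (horizontal axes), 1 point per library, silica (red) and air (blue), in lung and blood at 1 day and 6 months; axes do not start at 0. At 1 day silica and air libraries separate on both axes in both tissues, at 6 months they separate in lung on the horizontal axis only, and in blood on neither.

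Casp4 and Nek7 were the genes called in lung at both times, and the genes most like them were found among 11166 genes kept in all 4 tables, by Pearson's r of log2 CPM over 47 libraries after subtracting each table's mean. For Casp4 these were Lsp1 (r = 0.72), Lilrb4 (0.71) and Mki67 (0.70). For Nek7 they were St6gal1 (0.67), LOC499339 (0.66) and Usp24 (0.64). After subtracting each group's mean instead, the same pairs had r of 0.51, 0.51 and 0.49 for Casp4 and 0.56, 0.47 and 0.63 for Nek7. Libraries share animals, depth and treatment, so these values are descriptions. Among pairs of the 9 genes, Nlrp3 and Nlrc4 are named for the highest r, 0.74, and 0.63 within groups. Next in size within groups were Casp1 with Casp4 at 0.58 and Nlrp3 with Gsdmd at -0.55. Before subtracting group means these pairs had r of 0.13 and -0.39.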

How the data were processed

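The deposited tables, 1 per tissue and time, hold the authors' estimated (expected) counts for each gene, fractional and without normalization. They were rounded to whole numbers. Per the submitters' processing notes the tools were bcl2fastq 2.19, cutadapt 3.4, Trim Galore 0.6.7, STAR 2.6.1d and Salmon 1.10.1 with build Rnor_6.0. Estimated counts share reads between similar genes, and 266 gene names stood on more than 1 line. Promoters came from RefSeq's GRCr8 table, and no coordinates were converted.

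Groups follow the labels for tissue, time and treatment. The labels give no chambers, so treatment and chamber cannot be told apart, and p-values measure the spread between animals. Pairs of libraries within a group differed by more than sampling noise (chi-square over its degrees of freedom 3.62 to 32.9). CPM was computed on library sizes adjusted by TMM factors, set in each table from the genes that passed the filter, and depth limits low genes such as Aim2.

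Tests used the quasi-likelihood method of edgeR 4.0.16 under R 4.3.3 (TMM factors, low genes removed by filterByExpr at 10 counts, Benjamini-Hochberg adjustment over all genes tested, threshold 0.05). Time and tissue effects were compared as interactions. SE is the absolute log2 fold change divided by the square root of F. The script was tested on simulated data. Alternatives were DESeq2 1.42.0, limma-voom 3.58.1, RLE or upper-quartile factors, 50 counts in the filter, no filter, robust dispersion, all 4 groups of a tissue in 1 model, globin, erythroid and mitochondrial genes left out, each library left out in turn and the animal as a block in the tissue comparisons. Fits without blood libraries above 4% globin were added after seeing the data.

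Lung and blood titles share animal numbers, taken as the same animal. Their deviations from group means had correlations across genes of -0.095 to 0.18 in 12 pairs at 1 day, 3 of them above 0.1, and of -0.052 to 0.11 in 9 pairs at 6 months, 1 above 0.1.

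The genes and lists were chosen with earlier results of these data known. All 9 genes were named throughout, Il1b and Il18 in each silica comparison, and otherwise up to 3 genes with the smallest p among those past the threshold in each pathway group.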

Additional observations from a re-analysis of the deposited data

Results flagged for a closer look

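Of 72 groups of libraries, 8 for each of 9 genes, 5 held 1 library that stood apart from the rest, where chance gives about 1 in 20. Nek7 was at 180 CPM in air lung 42 at 1 day, with the next air lung at 167 CPM, and at 173 CPM in silica lung 64 at 6 months, with the next silica lung at 181 CPM. Txnip was at 1767 CPM in silica lung 59 at 6 months, next to 1540 CPM, and at 537 CPM in air blood 52 at 6 months, next to 431 CPM. Casp1 was at 92.4 CPM in air blood 38 at 1 day, next to 79.9 CPM.

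None of the 9 genes passed edgeR's interaction test between times or tissues, and 12 pathway genes did, in 14 tests. For lung time these were 3 of 61 tested, against 1.375% of all genes. For tissue they were 4 of 61 at 1 day, against 4.03%, and 7 of 62 at 6 months, against 3.53%, so the 1-day tissue count was near the background. In lung, the effect at 6 months minus that at 1 day was -1.05 for Il1b, 0.67 for Il18 and 0.46 for Txn1 on the log2 scale.

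The effect in lung minus that in blood at 1 day was 0.41 for Tlr2 and 0.34 for Ripk3, which were higher in silica lungs. It was -0.61 for Arrdc3, which fell in silica lungs (-0.25) and rose in silica blood (0.32), and -0.36 for Hmgb1. At 6 months it was 0.96 for Il18, 0.86 for Il1rn, 0.51 for Ctsb, 0.50 for Slc2a1, 0.49 for Txn1, 0.48 for Arrdc4 and 0.46 for Spi1. With the animal as a block, adjusted p was 0.0926 for Tlr2, 0.0621 for Ripk3, 0.0663 for Il18, 0.0818 for Ctsb, 0.0664 for Arrdc4 and 0.0518 for Spi1, and the other 5 stayed under 0.05. With 1 library left out, adjusted p reached 0.085 for Ripk3 (16 of 24 fits without the call), 0.0703 for Ctsb (8 of 23), 0.0566 for Arrdc4 (9 of 23), 0.0521 for Hmgb1 (3 of 24), 0.0608 for Slc2a1 (2 of 23) and 0.0501 for Txn1 (1 of 23).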

How the results depend on the processing

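No choice of factors moved the median of all genes by 0.1 on the log2 scale. The count of the 9 genes past the threshold in lung at 1 day was 4, or 2 with no filter on low counts and 2 to 3 with 1 library left out. It was 3 to 4 in lung at 6 months and 0 to 1 in blood at 1 day with 1 library left out. For the lung time interaction it was 1 with DESeq2 and 0 to 1 with 1 library left out. For the tissue interactions it was 0 to 1 with 1 library left out at both times, and 1 with DESeq2 at 6 months. With the animal number as a replicate block it stayed at 0 at both times, while the count over all genes was 415 instead of 645 at 1 day and 202 instead of 557 at 6 months, and of pathway genes 2 instead of 4 and 3 instead of 7. The 6-month block held 9 animals, fewer than the main fit.

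Over all genes, DESeq2 gave 360 instead of 168 in blood at 1 day, 2 instead of 1 at 6 months, 350 instead of 217 for lung time, 85 instead of 0 for blood time and 1009 instead of 557 for tissue at 6 months. Leaving out blood libraries above 4% globin gave 94 and 0 in blood at 1 day and 6 months. With 1 library left out, the count was 86 to 211 in blood at 1 day, with 86 to 95 without air 37, 38, 41 or 42 or silica 45, 46 or 48, and 0 in 11 of 12 fits in blood at 6 months. For blood time it was 0 to 3, and for tissue at 6 months 332 to 609, with 332 without lung air 53. For lung time, DESeq2 called 7 pathway genes instead of 3, and 2 to 8 were called with 1 library left out.

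Uncalled values near 0 changed sign. Gsdmd was at -0.0147 in blood at 1 day without libraries above 4% globin, Aim2 at -0.0015 in lung at 1 day with all 4 groups and the tissue difference of Nek7 at 6 months at 0.0086 with upper-quartile factors. With 1 library left out, values ran in blood at 1 day from -0.0043 to 0.19 for Casp4, -0.017 to 0.035 for Gsdmd and -0.084 to 0.059 for Pycard, and at 6 months from -0.026 to 0.072 for Aim2. In lung at 1 day they ran from -0.044 to 0.065 for Aim2 and -0.045 to 0.018 for Gsdmd. For lung time they ran from -0.045 to 0.021 for Gsdmd, -0.031 to 0.0094 for Nek7, -0.069 to 0.029 for Pycard and -0.092 to 0.0087 for Txnip. For tissue they ran from -0.012 to 0.063 for Nek7 and -0.14 to 0.0068 for Pycard at 1 day and -0.034 to 0.0091 for Nek7 at 6 months. The cause was not tested.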
